A study of Mus musculus with 10 samples.

Results

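The genes described here are 9 components of insulin-like growth factor (IGF) and insulin signaling, the ligand Igf1, the receptors Igf1r and Insr, the receptor substrates Irs1 and Irs2, and the IGF binding proteins Igfbp4, Igfbp5, Igfbp6, and Igfbp7. They were taken by symbol, matched to Ensembl identifiers through GENCODE M21 (GRCm38), and all 9 were among the 16112 genes measured. RNA was sequenced from the extensor digitorum longus (EDL, 3 libraries), a fast-twitch muscle of the lower leg, the psoas (3 libraries), a fast-twitch hip flexor, and the soleus (4 libraries), a slow-twitch muscle of the lower leg. The question was how the transcriptomes of these muscles differ from each other.

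All libraries came from wild-type mice of the strain B6C3Fe a/a-Ttnmdm/J, the stock that carries the mdm allele of titin, and the labels name no treatment of the mice. EDL and psoas came from mice aged 42, 54, and 44 days for replicates 1, 2, and 3. Soleus came from mice aged 42, 44, 32, and 44 days for replicates 1 to 4. EDL 1 and 2, psoas 1 and 2, and soleus 1 were labeled male, EDL 3, psoas 3, soleus 2, and soleus 4 female, and no sex was given for soleus 3. Psoas 1 and soleus 1 share an animal code, as do EDL 3 and soleus 2, and psoas 3 and soleus 4, so that the 10 libraries carry 7 codes. The study's methods give fewer mice than there are codes, and which codes belong to the same mouse is not given in the sources used here. The reads of EDL 1 and 2 and psoas 1 and 2 were quality-trimmed, and those of the other 6 libraries were not, so that in EDL and psoas trimming and sex set the same libraries apart. The study's methods state that the libraries were sequenced over several runs, without giving the run of each library. The fit used here has no term for the run.

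Total counts ranged from 12737971 (soleus 3) to 50431713 (psoas 1), and 3 counts, the upper limit that a count of 0 allows, corresponded to between 0.0595 and 0.236 CPM (counts scaled to a common library size). The lowest count of any of the 9 genes in any library was 35 (Irs2). The labeled tissues were checked against fiber markers, which set soleus apart from the fast-twitch EDL and psoas. The check does not test the EDL labels against the psoas labels. The summed level of 8 slow fiber markers was between 19712 and 31555 normalized CPM in soleus and at most 369 in the other muscles, and that of 8 fast fiber markers was between 70136 and 107172 normalized CPM in EDL and psoas and between 14084 and 26788 in soleus. The samples are whole muscles, so fewer cells of a type and less RNA per cell cannot be told apart in any value below.

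IGF-1 is a secreted growth factor that muscle fibers and the cells around them make and that also arrives from the liver through the blood. It binds the IGF-1 receptor, a tyrosine kinase that resembles the insulin receptor, and both receptors phosphorylate insulin receptor substrates, which engage PI3 kinase, AKT, and mTOR to promote protein synthesis, glucose uptake, and muscle growth. IGF binding proteins hold IGF-1 and IGF-2 outside the cell, where they extend the life of the ligand, carry it, or keep it from the receptor.

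Of the 9 genes, Igfbp6 was the gene whose level passed both thresholds of the test (adjusted p below 0.01, and more than a 2-fold difference). It was 5.08-fold lower in psoas and 2.76-fold lower in soleus than in EDL. Insr was 1.51-fold higher in psoas and 1.78-fold higher in soleus than in EDL, both under the fold threshold, and only the soleus difference passed the p threshold. The plot of the levels by library shows all 9 genes.

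**Figure D1:**
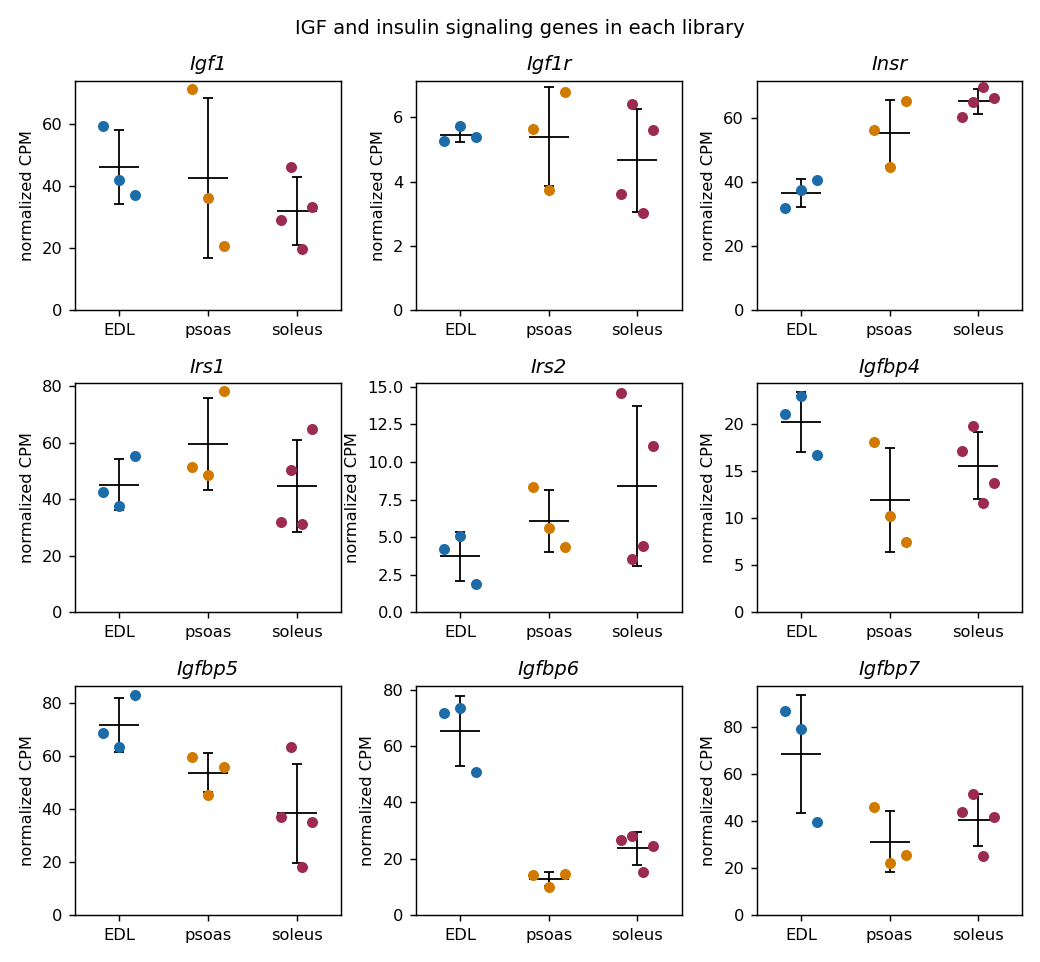
Normalized CPM (y axis, linear and starting at 0) of the 9 genes in each of the 10 libraries, with points for libraries in replicate order and black bars for the mean and SD of each muscle. The 3 EDL libraries of Igfbp6 lie between 50.8 and 73.3, above all psoas and soleus libraries, and the 3 EDL libraries of Insr lie below all psoas and soleus libraries.

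Igfbp6 encodes a secreted binding protein that prefers IGF-2 to IGF-1. The upstream sequences of Igfbp6, the gene past the thresholds, and of Igfbp5, the binding protein gene whose level followed Igfbp6 least among the other 3, are shown because they place the binding protein gene that differed beside one that did not pass. They hold the 250 bases before the RefSeq start (GRCm38.p6), at chr15:102143936-102144185 on the plus strand for Igfbp6 and at chr1:72874866-72875115 on the minus strand for Igfbp5, written 5′ to 3′. Capitals mark matches to CANNTG (the E-box letters that myogenic factors of the MyoD family recognize), to TATAAA, and to GGGCGG, each searched on both strands.
Igfbp6: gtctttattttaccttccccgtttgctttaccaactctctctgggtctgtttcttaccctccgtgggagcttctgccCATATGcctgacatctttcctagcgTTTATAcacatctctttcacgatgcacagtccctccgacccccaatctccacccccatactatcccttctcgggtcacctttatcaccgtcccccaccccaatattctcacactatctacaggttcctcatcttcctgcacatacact
Igfbp5: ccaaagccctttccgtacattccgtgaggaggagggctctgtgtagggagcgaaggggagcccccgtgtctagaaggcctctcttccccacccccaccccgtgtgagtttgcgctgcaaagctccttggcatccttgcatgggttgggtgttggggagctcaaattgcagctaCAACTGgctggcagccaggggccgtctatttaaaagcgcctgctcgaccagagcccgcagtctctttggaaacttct

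The Igfbp6 window held 1 match to CANNTG and 1 to TATAAA (on the opposite strand), and the Igfbp5 window held 1 match to CANNTG. Neither window held GGGCGG. Igfbp4, which did not pass, had the same counts in its window as Igfbp6, with 1 match to CANNTG and 1 to TATAAA. The Igfbp7 window held 4 matches to GGGCGG and none to the other motifs. Of 32851 mouse RefSeq windows of the same length, 66.2% held CANNTG, 12.4% TATAAA, and 32.7% GGGCGG. G and C made up 49.6% of the Igfbp6 window and 58.8% of the Igfbp5 window, against 69.2% for Igfbp4, 74.0% for Igfbp7, and a median of 52.4% over all windows. RefSeq windows were found for 8 of the 9 genes. In GENCODE, Igfbp6 has 1 transcript, whose start at position 102144362 of chromosome 15 lies downstream of the RefSeq start. These matches are letters in a window, and no measurement here bears on binding at them.

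In the EDL libraries, Igfbp6 was at 71.8, 73.3, and 50.8 normalized CPM (mean 65.3 ± 12.6, SD, n = 3). Psoas libraries had 14.1, 9.89, and 14.5 (mean 12.9 ± 2.57, SD, n = 3). The soleus libraries had 26.5, 28.2, 15.3, and 24.3 (mean 23.6 ± 5.75, SD, n = 4). The muscles did not overlap, with every EDL library above every soleus library and every soleus library above every psoas library, soleus 3 being closest to psoas. Igfbp6 lies on chromosome 15 (102144362 to 102149511, plus strand), and none of its exon bases overlap another annotated gene.

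Against EDL, the log2 fold change of Igfbp6 in psoas was -2.34 (SE 0.26, adjusted p = 0.001 by the quasi-likelihood test of edgeR, adjusted by Benjamini-Hochberg over all genes). In that comparison 2.11% of all genes passed both thresholds and 1.57% passed as lower in psoas, and Igfbp6 stood at rank 20 of 16112 by adjusted p. The call held under every one of the 21 alternatives that kept the thresholds, with log2 fold changes between -2.50 and -2.20.

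In soleus against EDL the log2 fold change of Igfbp6 was -1.47 (SE 0.23, adjusted p = 0.0017, edgeR), in a comparison in which 5.77% of all genes passed both thresholds and 2.18% passed as lower in soleus. The call was lost with read trimming as a covariate (log2 fold change -1.37, adjusted p = 0.0172, edgeR) and without EDL 2 (-1.38, adjusted p = 0.0102, edgeR), and its adjusted p ranged from 5.9e-08 to 0.0172 over 20 alternatives. Between soleus and psoas the log2 fold change of Igfbp6 was 0.88 (SE 0.24, higher in soleus, adjusted p = 0.0293, edgeR), which missed both thresholds. It passed them with sex as a covariate (1.04, adjusted p = 0.0071, edgeR) and without soleus 3 (1.01, adjusted p = 0.0088, edgeR), and 5.69% of all genes passed in that comparison.

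Within the untrimmed libraries from female mice aged 44 days, Igfbp6 was at 50.8 normalized CPM in EDL 3, 14.5 in psoas 3, and 28.2 and 24.3 in soleus 2 and 4. Within the trimmed libraries, EDL 1 and 2 had 71.8 and 73.3 and psoas 1 and 2 had 14.1 and 9.89. The order of the muscles was thus the same in each set, although no soleus library was trimmed. Where libraries share an animal code, soleus minus EDL was -0.85 on the log2 scale (EDL 3 and soleus 2), and soleus minus psoas was 0.91 (psoas 1 and soleus 1) and 0.75 (psoas 3 and soleus 4).

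Most markers of connective tissue and of macrophages had, like Igfbp6, fitted values below EDL in psoas and in soleus. Of their sums, only that of the tendon markers kept every muscle apart. The summed level of 10 tendon markers (Tnmd, Scx, and Kera among them) ranged from 807 to 866 normalized CPM in EDL, from 32.4 to 84.9 in psoas, and from 119 to 568 in soleus, and none of the 10 was at 0 in any library. All 10 passed both thresholds as lower in psoas than in EDL, and 8 passed as higher in soleus than in psoas. Between soleus and EDL 0 of the 10 passed by edgeR, DESeq2, or limma-voom, although 6 were lower in soleus at an unadjusted p under 0.05 by edgeR. The summed level of 10 fibroblast markers (Pdgfra, Col1a1, and Dcn among them) ranged from 2123 to 3730 normalized CPM in EDL, from 689 to 1061 in psoas, and from 682 to 1563 in soleus, with none at 0. Of these 10 genes 2 passed as lower in psoas than in EDL and 3 as lower in soleus than in EDL, and 0 passed between soleus and psoas by edgeR (2 by DESeq2, 0 by limma-voom, and 3 at an unadjusted p under 0.05 by edgeR). The summed level of 8 macrophage markers (Adgre1, Cd68, and Csf1r among them) ranged from 123 to 322 normalized CPM in EDL, from 52.0 to 137 in psoas, and from 100.2 to 157 in soleus, with none at 0. All 8 had fitted values below EDL in psoas (median log2 fold change -1.23) and in soleus (-0.86), and 1 passed both thresholds in each of these comparisons. The part of these markers in the result for Igfbp6 was not tested.

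**Figure D2:**
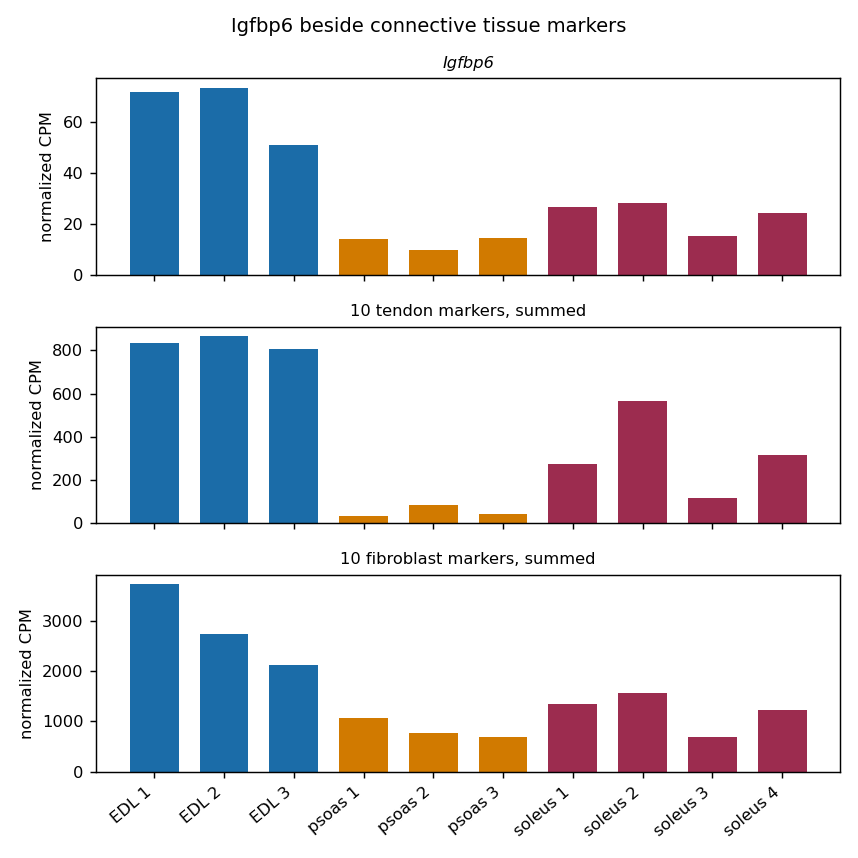
Normalized CPM (y axes, linear and starting at 0) of Igfbp6, of 10 tendon markers summed, and of 10 fibroblast markers summed, with a bar for each library and colors for the muscles. The tendon sum is at most 84.9 in the 3 psoas libraries and at least 807 in the 3 EDL libraries, and among the soleus libraries soleus 3 has the lowest value in all 3 panels.

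Over the 10 libraries, the genes whose log2 CPM followed Igfbp6 most closely were Vit (r = 0.976), which encodes the matrix protein vitrin, Fam180a (r = 0.975), and Lrrc45 (r = 0.974), out of 12664 genes compared. These correlations are descriptions. All points share the division into 3 muscles, so any gene with a like order of muscles scores high.

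Insr encodes the insulin receptor and lies on chromosome 8 (3122061 to 3279617, minus strand). Its level was 31.9, 37.6, and 40.6 normalized CPM in EDL, 56.1, 44.7, and 65.3 in psoas, and 60.3, 65.1, 69.7, and 66.2 in soleus. All psoas and soleus libraries were above all EDL libraries, while psoas and soleus overlapped because psoas 3 was above soleus 1 and soleus 2. The means were 36.7 ± 4.39 (SD, n = 3), 55.4 ± 10.3 (SD, n = 3), and 65.3 ± 3.89 (SD, n = 4).

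The log2 fold change of Insr in soleus against EDL was 0.83 (SE 0.16, adjusted p = 0.0059, edgeR), so that the p threshold was passed and the fold threshold was not. Over 20 alternatives the difference stayed positive (0.64 to 0.91), and the adjusted p reached 0.058 with read trimming as a covariate. In psoas against EDL it was 0.59 (SE 0.17, adjusted p = 0.0477, edgeR). With the replicate number as a block, which groups EDL and psoas libraries of the same age, the adjusted p was 0.0743 by edgeR. Without EDL 1 the adjusted p was 0.213 (log2 fold change 0.47), and without EDL 2 it was 0.126 (0.61), both by edgeR. Soleus and psoas differed by 0.24 (SE 0.16, adjusted p = 0.373, edgeR).

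Within the untrimmed libraries from female mice aged 44 days, Insr was at 40.6 in EDL 3, 65.3 in psoas 3, and 65.1 and 66.2 in soleus 2 and 4, and within the trimmed ones it was at 31.9 and 37.6 in EDL and 56.1 and 44.7 in psoas. Between EDL 3 and soleus 2, which share an animal code, Insr was higher in soleus by 0.68 on the log2 scale. In the pairs of psoas and soleus that share a code the differences were 0.10 and 0.02. The genes whose level followed Insr most closely were Pa2g4 (r = 0.967), Rita1 (r = 0.964), and Usp13 (r = 0.961) over the 10 libraries.

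Igf1r encodes the IGF-1 receptor and had the lowest level per length of the 9 genes, between 0.182 and 0.399 FPKM, a read level scaled to gene length and library size, above 19.1% of the 16032 genes with a length. Its level was 5.28, 5.73, and 5.38 normalized CPM in EDL, 5.65, 3.74, and 6.80 in psoas, and 3.63, 6.43, 3.03, and 5.59 in soleus. The 3 EDL libraries lay within the range of the psoas libraries and within that of the soleus libraries. Its log2 fold changes were -0.02 (SE 0.30) in psoas against EDL, -0.21 (SE 0.28) in soleus against EDL, and -0.19 (SE 0.29) in soleus against psoas, with adjusted p of 0.978, 0.626, and 0.711 by edgeR. These SEs rest on 38 to 304 reads a library.

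Insr was above Igf1r per length in every library. The ratio of the FPKM of Insr to that of Igf1r was 7.39, 8.02, and 9.21 in EDL, 12.1, 14.6, and 11.7 in psoas, and 20.3, 12.4, 28.1, and 14.5 in soleus. Every psoas and soleus library was above every EDL library, and psoas and soleus overlapped. The highest ratio, in soleus 3, came with the highest Insr and the lowest Igf1r level of all libraries.

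Igf1, the ligand (chromosome 10, 87858265 to 87937042, plus strand), was at 59.6, 41.9, and 37.1 normalized CPM in EDL, 71.3, 36.3, and 20.7 in psoas, and 29.1, 46.1, 19.6, and 33.2 in soleus. Psoas alone spanned nearly the whole range of the 10 libraries, from 20.7 in psoas 3 to 71.3 in psoas 1, and the 3 muscles overlapped. The log2 fold changes were -0.11 (SE 0.40), -0.53 (SE 0.38), and -0.42 (SE 0.38) in psoas against EDL, soleus against EDL, and soleus against psoas, with adjusted p of 0.896, 0.343, and 0.516 by edgeR.

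The direction of Igf1 turned with single libraries. In psoas against EDL it was 0.22 without psoas 3, 0.09 without EDL 1, and -0.11 with all libraries, and in soleus against psoas it was 0.14 without psoas 1. Between psoas 1 and soleus 1, which share an animal code, soleus minus psoas was -1.29 on the log2 scale, and between psoas 3 and soleus 4, which share another, it was 0.68, so that these pairs differed in sign. Grasp (r = 0.910), Pcdh7 (r = 0.906), and Sec14l1 (r = 0.901) followed Igf1 most closely over the 10 libraries.

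Irs1 and Irs2 encode the receptor substrates that link the activated receptors to PI3 kinase. Irs1 was at 42.5, 37.8, and 55.3 normalized CPM in EDL, 51.5, 48.7, and 78.4 in psoas, and 31.8, 50.5, 31.1, and 65.0 in soleus. The muscles overlapped, and in each muscle the libraries from female mice aged 44 days had the highest values. Log2 fold changes were 0.40 (SE 0.30) in psoas against EDL, -0.02 (SE 0.28) in soleus against EDL, and -0.41 (SE 0.28) in soleus against psoas, and their adjusted p were 0.411, 0.977, and 0.371 by edgeR.

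Irs2 varied more than any other of the 9 genes, by 7.58 times from its lowest to its highest library, against 7.42 times for Igfbp6 and 2.18 times for Insr. It was at 4.20, 5.07, and 1.92 normalized CPM in EDL, 8.31, 5.58, and 4.32 in psoas, and 14.6, 3.53, 4.39, and 11.1 in soleus. The 4 soleus libraries split into soleus 1 and 4, above all others, and soleus 2 and 3, within the range of EDL. The log2 fold change in soleus against EDL was 1.14 (SE 0.50, adjusted p = 0.128, edgeR), which missed the p threshold although it exceeded the fold threshold. It was 0.69 (SE 0.52, adjusted p = 0.414, edgeR) in psoas against EDL and 0.45 (SE 0.49, adjusted p = 0.601, edgeR) in soleus against psoas.

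In the 3 pairs of libraries that share an animal code Irs2 was higher in soleus than in the other muscle, by 0.88 against EDL and by 0.81 and 1.36 against psoas on the log2 scale. Per length, Irs1 was above Irs2 in every library, by 1.51 times in soleus 1 to 19.9 times in EDL 3. The exons of Irs1 overlap those of the antisense gene Gm9747 by 2822 bases, to which 224 reads were assigned over all 10 libraries, and the sources used here give no strand setting for the counting.

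The other 3 binding protein genes were lower on average in psoas than in EDL and did not pass the thresholds. Igfbp7, which encodes a secreted relative of the family found in vessel walls that binds IGFs weakly, was at 86.6, 78.9, and 39.7 normalized CPM in EDL, 45.8, 22, and 25.6 in psoas, and 43.9, 51.3, 25.0, and 41.4 in soleus. EDL 1 and 2 were above all other libraries, while EDL 3 was within the range of both other muscles. The log2 fold change was -1.13 (SE 0.36, adjusted p = 0.0636, edgeR) in psoas against EDL, and with the replicate number as a block its adjusted p was 0.0446 by edgeR. It was -0.76 (SE 0.33, adjusted p = 0.125, edgeR) in soleus against EDL and 0.37 (SE 0.33, adjusted p = 0.515, edgeR) in soleus against psoas.

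Within the untrimmed libraries from female mice aged 44 days, Igfbp7 was at 39.7 in EDL 3, 25.6 in psoas 3, and 51.3 and 41.4 in soleus 2 and 4. Soleus was thus above EDL in this set, against the order of the means over all libraries, and with read trimming as a covariate the log2 fold change in soleus against EDL was -0.20 (adjusted p = 0.788, edgeR). The summed level of 8 endothelial markers ranged from 143 to 237 normalized CPM in EDL, from 136 to 161 in psoas, and from 168 to 200 in soleus, with none at 0, and EDL 3 had the lowest of the EDL values. Their part in the values of Igfbp7 was not tested. The exons of Igfbp7 share 85 bases with Polr2b on the opposite strand.

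Igfbp4 encodes a binding protein that inhibits IGF action and releases its ligand when the protease pappalysin cuts it. Its level was 21, 23, and 16.8 normalized CPM in EDL, 18.1, 10.2, and 7.51 in psoas, and 17.2, 19.7, 11.6, and 13.8 in soleus. The muscles overlapped, with psoas 1 inside the EDL range and psoas 2 and 3 below every other library. The log2 fold changes were -0.75 (SE 0.30, adjusted p = 0.124, edgeR) in psoas against EDL, -0.38 (SE 0.28, adjusted p = 0.354, edgeR) in soleus against EDL, and 0.38 (SE 0.28, adjusted p = 0.428, edgeR) in soleus against psoas.

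Igfbp5 encodes a binding protein that attaches to the extracellular matrix and is made by differentiating muscle cells. It was at 68.7, 63.3, and 83.3 normalized CPM in EDL, 59.8, 45.5, and 56.0 in psoas, and 37.0, 63.3, 18, and 35.3 in soleus. All EDL libraries were above all psoas libraries, whereas soleus 2 was at the lower end of the EDL range and the other soleus libraries were below every EDL and psoas library. The log2 fold change of Igfbp5 in soleus against EDL was -0.90 (SE 0.32, adjusted p = 0.0684, edgeR), that in psoas against EDL -0.42 (SE 0.34, adjusted p = 0.457, edgeR), and that in soleus against psoas -0.48 (SE 0.32, adjusted p = 0.360, edgeR). In each of the 3 pairs that share an animal code Igfbp5 was lower in soleus, with differences of -0.39 from EDL and of -0.69 and -0.67 from psoas on the log2 scale.

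**Figure D3:**
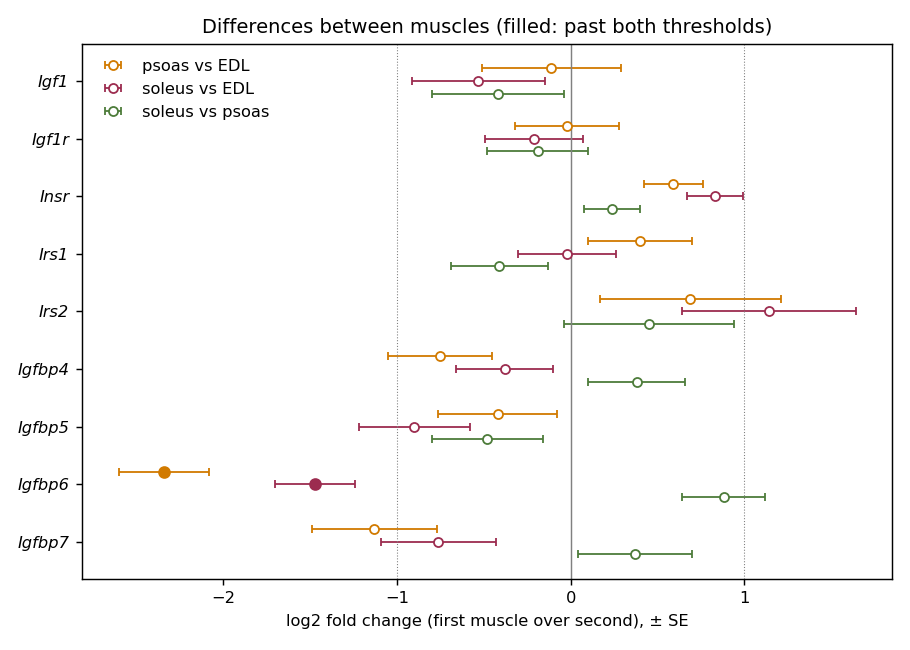
Log2 fold change (x axis) with its SE for the 9 genes in the 3 comparisons between muscles, from the edgeR fit over all libraries. Filled points passed both thresholds (the dotted lines at -1 and 1 mark the fold threshold), and these are Igfbp6 at -2.34 and -1.47.

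Counted over the 9 genes, 1 passed both thresholds in psoas against EDL and 1 in soleus against EDL (Igfbp6 in both), and 0 passed in soleus against psoas by edgeR, DESeq2, or limma-voom (1, Igfbp6, at an unadjusted p under 0.05 by edgeR). At an adjusted p under 0.05 without a fold threshold, 2 genes passed in psoas against EDL, 2 in soleus against EDL (Igfbp6 and Insr in both), and 1 in soleus against psoas (Igfbp6), beside 11.1%, 18.6%, and 14.5% of all genes by edgeR. The libraries did not overlap for 3 genes in psoas against EDL (Insr, Igfbp5, and Igfbp6), 2 in soleus against EDL (Insr and Igfbp6), and 1 in soleus against psoas (Igfbp6). Over all genes 29.6%, 29.5%, and 25.8% did not overlap, so that the shares of the 9 genes were near or below those of all genes. The median log2 fold changes of the 9 genes were -0.11, -0.38, and 0.24, beside 0.01, -0.05, and 0.02 over all genes. The 2 comparisons with EDL share the EDL libraries.

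Per length, Igfbp7, Igfbp6, and Igfbp5 had the highest levels of the 9 genes. Averaged over all libraries, Igfbp7 was at 37.7 FPKM and Igfbp6 at 29.2, above 95.1% and 93.9% of genes, followed by Igfbp5 at 8.74, Irs1 at 5.33, Igf1 at 3.95, Insr at 3.87, Igfbp4 at 3.56, Irs2 at 0.987, and Igf1r at 0.302. Several neighbors in this order were not separated. Igfbp6 exceeded Igfbp7 in EDL 2 and 3 and was below it in the other 8 libraries, and Igf1, Insr, and Igfbp4 overlapped.

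Summed over Igfbp3 to Igfbp7, the level of binding protein transcripts was 154, 149, and 98.5 FPKM in EDL, 68.5, 38.9, and 46.5 in psoas, and 71.9, 82.4, 41.4, and 66.4 in soleus. All EDL libraries were above all psoas and soleus libraries. The makeup of this sum also differed between muscles. Igfbp6 made up 43.8% ± 2.22 in EDL (SD, n = 3), 23.2% ± 4.45 in psoas (SD, n = 3), and 32.0% ± 1.72 in soleus (SD, n = 4), and the ranges of the 3 muscles did not overlap.

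Igfbp5 made up 18% ± 2.88 (SD, n = 3) in psoas, against 9.42% ± 3.88 (SD, n = 3) in EDL and 9.18% ± 2.17 (SD, n = 4) in soleus, and all psoas libraries were above the others. The level of Igfbp5 itself was not highest in psoas, with means of 11.8 FPKM in EDL, 8.97 in psoas, and 6.25 in soleus. The psoas share is one of a sum that was lower in psoas than in EDL. The ratio of Igfbp6 to Igfbp5 was between 1.175 and 1.40 in psoas, 2.40 and 4.59 in soleus, and 3.30 and 6.26 in EDL, with EDL and soleus overlapping. Igfbp7 held 50.0% ± 0.391 (SD, n = 4) in soleus, a spread of less than 1 percentage point between libraries whose summed level ranged from 41.4 to 82.4 FPKM. Without correction for gene length the share of Igfbp6 was 27.5% in EDL, 11.2% in psoas, and 19.3% in soleus, since Igfbp6 has summed exons of 1112 bases and Igfbp5 of 6006, and the order of the muscles was the same.

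**Figure D4:**
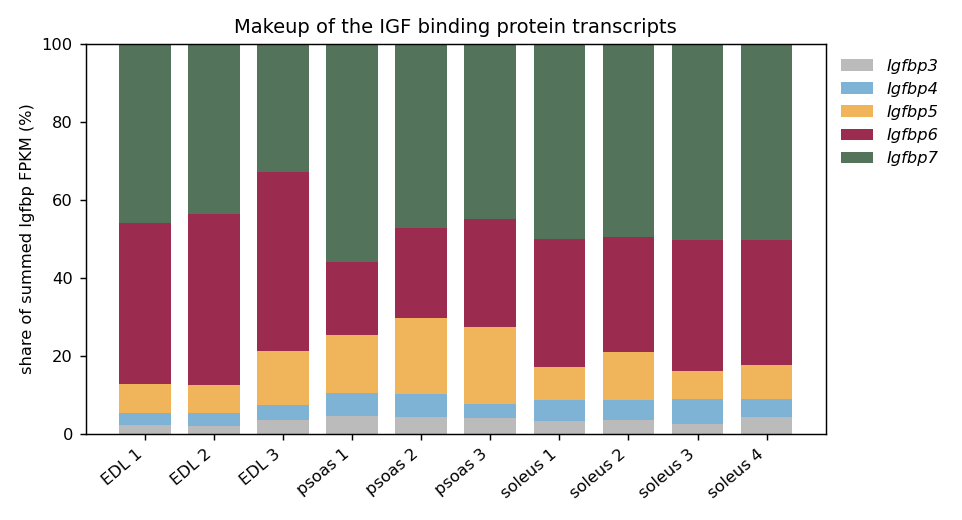
Share of each binding protein gene in the summed FPKM of Igfbp3 to Igfbp7 (y axis, percent) in each library (x axis), as stacked bars. The Igfbp6 part averages 43.8% in EDL, 23.2% in psoas, and 32.0% in soleus. The Igfbp5 part is largest in the 3 psoas libraries, of a sum that is lower in psoas than in EDL.

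Igfbp4, Igfbp6, and Igfbp7 varied together over the 10 libraries (r of log2 CPM 0.75 for Igfbp4 and Igfbp6, 0.89 for Igfbp4 and Igfbp7, and 0.86 for Igfbp6 and Igfbp7), while Igfbp5 had r between 0.41 and 0.51 with these genes and 0.73 with Igf1r. Insr ran against the binding proteins, with r between -0.67 (Igfbp6) and -0.48 (Igfbp4). Igfbp7 was followed most closely by Iqgap1 (r = 0.980), Bmp1 (r = 0.978), and Acap2 (r = 0.974), Igfbp4 by Twf1 (r = 0.964), Carmil1 (r = 0.950), and Cotl1 (r = 0.944), and Igfbp5 by Tnrc18 (r = 0.958), Trim11 (r = 0.942), and Angptl2 (r = 0.940).

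The closest genes to Igf1r were Ptprf (r = 0.937), Creb3l2 (r = 0.927), and Anpep (r = 0.925), and those to Irs1 were Map10 (r = 0.923), Nr3c1 (r = 0.923), and Igfals (r = 0.922), the last of which encodes the acid-labile subunit of the circulating IGF complex. Irs2 was followed by Gm7589 (r = 0.944), Rnf144b (r = 0.890), and Naca (r = 0.884). These values are descriptions over 10 libraries that share 3 muscles and, in part, mice.

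Other genes of the pathway were described from a list of 81 genes, of which 74 were measured. Between psoas and EDL, 2 of the 74 passed both thresholds, beside 2.11% of all genes. Of the 2, 1 was higher in psoas, where 0.54% of all genes passed, and 1 lower, where 1.57% passed. Tbc1d4, whose product AS160 is an AKT substrate that holds glucose transporter vesicles inside the cell until it is phosphorylated, was at 11.3, 10.8, and 12.9 normalized CPM in EDL, 42.4, 35.0, and 90.1 in psoas, and 54.5, 78.0, 48.7, and 79.5 in soleus. Every psoas and soleus library was above every EDL library. Its log2 fold change was 2.26 (SE 0.34, adjusted p = 0.0036, edgeR) in psoas and 2.49 (SE 0.33, adjusted p = 0.00066, edgeR) in soleus, both against EDL.

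Enpp1, which encodes a membrane enzyme that inhibits the insulin receptor, was at 11.7, 9.87, and 6.65 normalized CPM in EDL, 2.27, 2.22, and 4.11 in psoas, and 5.27, 6.13, 4.55, and 6.02 in soleus. Psoas was below the other muscles without overlap, and the log2 fold change against EDL was -1.73 (SE 0.29, adjusted p = 0.0065, edgeR). At an adjusted p under 0.05 by edgeR, 13 of the 74 pathway genes were higher and 1 lower in psoas, beside 4.76% and 6.34% of all genes, and the median log2 fold change of the list was 0.31, beside 0.01 for all genes. The count of 2 was 0 with the replicate number as a block and 1 with that block in EDL and psoas alone. It was 0 without EDL 1 or EDL 2, 8 without EDL 3, and 1 without psoas 1, psoas 2, soleus 1, soleus 2, or soleus 4. The count over all genes, 340, moved too. That count was 146 with the block over all libraries, 69 without EDL 1, 87 without EDL 2, and 963 without EDL 3. Where leaving out a library gave 1 pathway gene, it was between 61 and 281.

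Between soleus and EDL, 7 of the 74 passed as higher in soleus, where 3.59% of all genes passed, and 0 as lower (1 by DESeq2, 0 by limma-voom, and 5 at an unadjusted p under 0.05 by edgeR). Beside Tbc1d4 these were Akt1 (log2 fold change 1.04), a kinase downstream of PI3 kinase, Gsk3b (1.29), a kinase that AKT inhibits and that restrains glycogen synthesis, the kinase gene Mtor (1.13) and Rptor (1.44), which encodes the raptor subunit of mTOR complex 1, Eif4ebp2 (1.57), a translation repressor that this complex phosphorylates, and Grb14 (1.23), an adaptor that inhibits the insulin receptor. Grb14 was at 22.2, 34.0, and 30.3 normalized CPM in EDL, 24.8, 32.4, and 27.8 in psoas, and 71.6, 62.5, 89.1, and 47.7 in soleus, so that soleus stood above both fast muscles (adjusted p = 0.0044 against EDL and 0.0039 against psoas, edgeR).

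At an adjusted p under 0.05 by edgeR, 17 of the 74 pathway genes were higher and 3 lower in soleus than in EDL, beside 9.79% and 8.80% of all genes, and the median log2 fold change of the list was 0.26, beside -0.05 over all genes. The count of 7 was 1 with read trimming as a covariate and 4 with the replicate number as a block. It was 2 without EDL 1 or EDL 2, 3 without soleus 2, and 4 without soleus 1 or soleus 4. The count over all genes, 929, moved too. That count was 371 with the covariate, 586 with the block, 385 without EDL 1, and 405 without EDL 2. Without soleus 1, 2, or 4 it was 688, 628, or 588. The block places soleus 2 and 3 with EDL and psoas libraries of another age, and soleus 4 alone. By animal code, soleus 2 goes with EDL 3.

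Between soleus and psoas, 2 of the 74 passed as higher in soleus (2.99% of all genes) and 2 as lower (2.71% of all genes). The higher ones were Grb14 (log2 fold change 1.26) and Pik3r3 (1.23, adjusted p = 0.0047, edgeR), a regulatory subunit of PI3 kinase. The lower ones were Sh2b1 (-1.15, adjusted p = 0.0039, edgeR), an adaptor of the insulin receptor, and Deptor (-2.55, SE 0.37, adjusted p = 0.001, edgeR), an inhibitor of mTOR. Deptor was at 20.6, 12.1, and 23.7 normalized CPM in EDL, 87.9, 37.9, and 36.6 in psoas, and 14, 9.12, 7.34, and 6.70 in soleus, and psoas stood above both other muscles. The count of 4 was 1 without any single psoas library and 2 without soleus 1 or soleus 4, and 2 also with the replicate number as a block or read trimming as a covariate. The count over all genes, 917, moved too. That count was 568, 493, and 830 without psoas 1, 2, and 3, and 792 and 602 without soleus 1 and 4. With the block it was 539, and with the covariate 566.

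**Figure D5:**
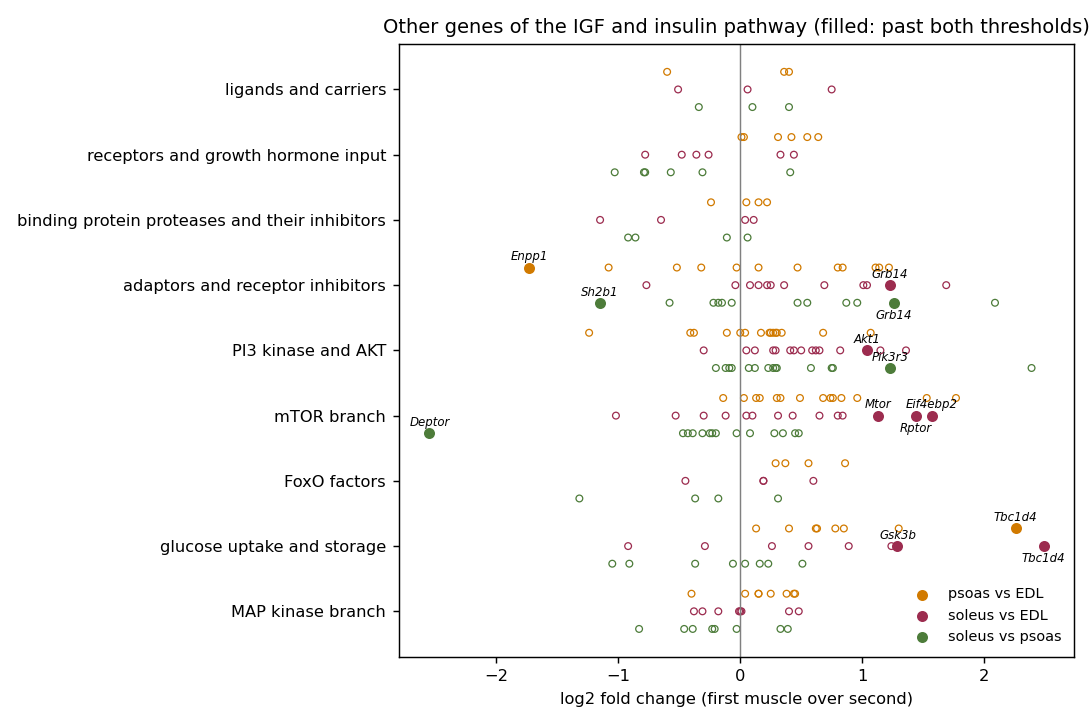
Log2 fold change (x axis) of the 74 other pathway genes in the 3 comparisons, in rows by role and colored by comparison, with named filled points for genes past both thresholds. In soleus against EDL the 7 filled points lie to the right, from Akt1 at 1.04 to Tbc1d4 at 2.49.

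Among pathway genes that did not pass, Igf2, the second IGF ligand, ranged from 3.41 to 4.998 normalized CPM in EDL, from 2.66 to 8.50 in psoas, and from 5.18 to 9.51 in soleus, with adjusted p of 0.580, 0.158, and 0.518 by edgeR in the 3 comparisons. Igf2r, the receptor that clears IGF-2, was 1.36-fold higher in soleus than in EDL. On the log2 scale this difference was 0.44 (SE 0.20), and edgeR gave it an adjusted p of 0.141. Igfbp3, the main carrier of IGFs in blood, was between 3.03 and 11.1 normalized CPM in all libraries, and Igfbp2 was not among the genes measured. Slc2a4, which encodes the insulin-responsive glucose transporter GLUT4, was at 127, 150, and 161 normalized CPM in EDL, 237, 214, and 226 in psoas, and 184, 174, 181, and 159 in soleus. Psoas was above both other muscles without overlap, and its log2 fold change against EDL was 0.63 (SE 0.16, adjusted p = 0.0288, edgeR), which missed both thresholds. Ghr, the growth hormone receptor, and Akt2, the AKT form that insulin uses in muscle, had adjusted p of at least 0.0668 and 0.591 by edgeR in the 3 comparisons.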

How the data were processed

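RNA-seq libraries were made from total RNA of EDL (3), psoas (3), and soleus (4) with a stranded kit, and muscles were assigned from the sample labels. The authors trimmed low-quality libraries (Trimmomatic 0.32), aligned read pairs with TopHat2 2.1.1 to the mouse genome (GRCm38.p4, mm10), took read counts per gene with R packages, and kept genes that reached 10 reads in 3 or more libraries. The deposited values are raw counts per Ensembl gene, 1 file per library. The strand setting and the treatment of reads with several alignments are not given in the sources used here.

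Counts were fitted for all 16112 genes and 10 libraries with edgeR 4.0.16 in R 4.3.3 (TMM normalization, quasi-likelihood test, no covariate), with Benjamini-Hochberg adjustment over all genes. Calls required an adjusted p below 0.01 and more than a 2-fold difference. Normalized CPM used TMM library sizes, and FPKM were computed with DESeq2 1.42.0 from summed exon lengths. The fit was tested on simulated counts of independent libraries. In psoas against EDL it recovered 187 of 200 genes given a log2 fold change of 3 up or down, with 1 false call. Smaller differences and libraries that share mice were not simulated. Alternatives were DESeq2, limma-voom (limma 3.58.1), other normalizations and filters, blocks, covariates, and leaving out each library. The libraries of different muscles come in part from the same mice, and the study's methods give fewer mice than the labels have animal codes. The fit treats libraries as independent. Its p-values weigh differences between muscles against the spread between these libraries, which is not a spread between independent mice. Same-numbered EDL and psoas libraries share age, sex, and trimming but carry different animal codes. Deviations of these libraries from their muscle means correlated at 0.263, 0.106, and 0.504. Whether same-numbered libraries come from the same mouse is not given in the sources used here. The genes and lists were chosen with earlier results of these data known. Named were the 9 genes, a fixed set of pathway genes, pathway genes past the thresholds, and the 3 genes closest to each of the 9.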

Additional observations from a re-analysis of the deposited data

How the results depend on the processing

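Of the log2 fold changes of the 9 genes, 532 values under alternatives kept their direction and their side of the thresholds, and 13 changed sign, none of them of a gene past the thresholds. In psoas against EDL, Igf1 was 0.09 without EDL 1, 0.00 without psoas 2, and 0.22 without psoas 3 (-0.72 to 0.22 over libraries left out), and Igf1r was 0.00 with animal as a random effect, 0.02 without EDL 2, and 0.17 without psoas 2 (-0.21 to 0.17). In soleus against EDL, Irs1 was 0.15, 0.12, and 0.07 without EDL 3, soleus 1, and soleus 3 (-0.25 to 0.15), and with read trimming as a covariate Igf1 was 0.07 and Igfbp4 0.06. In soleus against psoas, Igf1 was 0.28 with read trimming as a covariate and 0.14 without psoas 1 (-0.75 to 0.14). The cause was not tested.

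Of the 9 genes, 2, 2, and 1 passed (psoas against EDL, soleus against EDL, soleus against psoas) at an adjusted p under 0.05 without a fold threshold (edgeR). In soleus against EDL 0 passed (edgeR) with read trimming as a covariate, and leaving out a library gave 0 to 1. In soleus against psoas 1 passed with sex as a covariate, and leaving out a library gave 0 to 1.

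Of the 74 pathway genes, 7, 12, and 7 passed with DESeq2 and 14, 20, and 12 at an adjusted p under 0.05 without a fold threshold, in the same order. Leaving out 1 library gave 0 to 8, 2 to 9, and 1 to 4. With the replicate block 0, 4, and 2 passed, with that block in EDL and psoas alone (added after seeing the data) 1, and with read trimming as a covariate 4, 1, and 2. In psoas against EDL 4 passed with limma-voom or with animal as a random effect, 5 with sex as a covariate, and 0 with these muscles fitted alone. The replicate block places soleus 2 and 3 with EDL and psoas libraries of another age. Deviations of soleus libraries from their muscle mean correlated with those of same-numbered EDL and psoas libraries at -0.215 to 0.327. The replicate block changed no call on the 9 genes. Over all genes 340, 929, and 917 passed by edgeR, against 1095, 1520, and 1382 with DESeq2 and 146, 586, and 539 with the replicate block. Upper-quartile normalization moved the median of all genes in soleus against EDL to -0.14. Without length correction the shares of Igfbp3 to Igfbp7 were 4.48%, 8.57%, 31.1%, 27.5%, and 28.3% in EDL, 5.72%, 10.1%, 47.0%, 11.2%, and 26.1% in psoas, and 5.68%, 12.9%, 29.5%, 19.3%, and 32.7% in soleus.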
